A study of Bos taurus with 6 samples.

Results

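NF-κB is a family of transcription factors that drives adhesion, chemokine and survival genes, and the genes described here are members of that pathway or its known targets. They were chosen by name: VCAM1 and ICAM1 for adhesion, CCL2 and CXCL8 for chemokines, IL1B for the cytokine that starts the pathway, NFKB1 and RELA for the subunits, NFKBIA and TNFAIP3 for its feedback inhibitors, and SOD2 for protection from oxidants. Of these 10 genes, 9 were represented by a probe set with a single annotated symbol on the Affymetrix GeneChip Bovine Genome Array, with 11 probe sets of the 24016 tested (9155 genes were named in all). CCL2 and IL1B each had a pair of probe sets. No probe set was annotated as TNFAIP3, so that gene was not analysed here. The choice of genes was made with earlier results of these data known.

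Articular chondrocytes, the cells of joint cartilage, were taken from bovine metacarpal-phalangeal joints and plated at high density as micromass cultures, in which they lay down matrix. Cultures of 3 cows were either left untreated with vehicle (3 arrays) or exposed for 8 hours to TGF-β1 at 5 ng/ml (3 arrays), and all were kept in medium with low serum and ascorbate. No group carried a mutation. No array of cells given IL-1 or TNF was part of the series, so each value below describes cultures to which neither was added. Arrays were numbered 1 to 3 in each group, and arrays of the same number were treated as a pair.

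In resting cells NF-κB subunits are held in the cytoplasm by IκB proteins. Interleukin 1, tumour necrosis factor and ligands of Toll-like receptors activate a kinase complex that marks IκB for destruction, after which the subunits enter the nucleus and switch on adhesion molecules, chemokines and their own inhibitors. In chondrocytes the pathway is known for its part in the inflammatory breakdown of cartilage. The question of the comparison was which of these transcripts TGF-β changed in chondrocytes over the 8 hours.

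The deposited values are log2 signals in which every probe set is centred on its median over the 6 arrays. They show how an array differs from the other arrays, but not how abundant a transcript was, so neither levels of different genes nor detection above background could be judged, and the chondrocyte markers could not be checked for presence. Both replicate 3 arrays stood apart from the other 4 on the first principal component, which held 56.4% of the variance. The cell cycle list had medians of 2.16 and 1.96 log2 units on those arrays, against -0.28 to -0.044 on the other 4. Bacterial spike-in controls were bright on the TGF-β array of replicate 2, with a median of 1.53 log2 units over 18 probe sets against -0.17 to 0.06 elsewhere. Values without a replicate are given below for VCAM1, CCL2, CXCL8, CCL20, CXCL14, CCND1 and the receptors that passed.

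VCAM1 was lower with TGF-β, and it was the only gene of the 9 to pass the test. VCAM1 encodes the cell surface protein that binds the integrin α4β1 of leukocytes. The only probe set annotated as VCAM1 alone had 0.33, 0.82 and 0.12 log2 units in untreated replicates 1, 2 and 3. With TGF-β it had -0.12, -0.64 and -1.2 log2 units. All 3 TGF-β arrays lay below all 3 untreated arrays, with the largest gap between the cultures of replicate 2. The difference was -0.45, -1.46 and -1.32 log2 units in replicates 1, 2 and 3, a mean of -1.07 ± 0.55 (SD, n = 3 pairs), or 2.11-fold lower. In limma's paired fit the SE was 0.184, the 95% interval -1.49 to -0.66 and the Benjamini-Hochberg adjusted p over all probe sets 0.0121. That SE uses limma's variance pooled over all probe sets, and is smaller than the spread of the 3 differences alone would give. By size of difference, 99.0% of probe sets lay below VCAM1. A lower value in a whole culture can come from fewer cells with the transcript or from less of it per cell, and these cannot be told apart.

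The VCAM1 call depended on replicate 2. Without both arrays of that replicate, 1 of which carried the bright spike-in controls, the log2 difference was -0.88 (limma paired fit, unadjusted p = 0.00531, adjusted p = 0.106). It was -1.39 (adjusted p = 0.000854) without replicate 1 and -0.95 (adjusted p = 0.0134) without replicate 3. Calls over all probe sets also dropped without replicate 2, from 585 to 272 higher and from 832 to 267 lower. On the groups alone, without the pairing, limma gave VCAM1 an adjusted p of 0.646, and 0 of all probe sets passed in that fit. At an unadjusted p under 0.05 it gave 1377 probe sets, or 5.73%, and 1 of the 11, which was VCAM1. The methods' t-test gave 4.3% of all probe sets at an unadjusted p under 0.05 and 0 of the 11. The sign was negative in every setting tried.

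**Figure D1:**
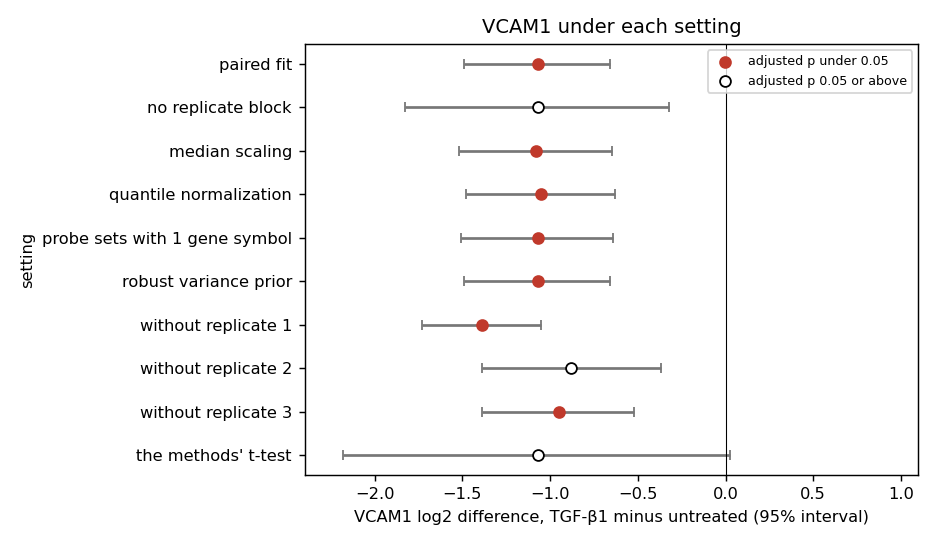
Log2 difference of VCAM1, TGF-β1 minus untreated, in the paired fit and under 9 other settings (rows), with 95% intervals as bars. Filled points passed an adjusted p of 0.05. Estimates lie between -1.39 and -0.88, and the call is lost without replicate 2, without the replicate block and in the methods' unequal-variance test.

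Across the 11 probe sets, 0 were called higher and 1 was called lower. Over all probe sets the paired fit called 2.44% higher and 3.46% lower (5.9% in either direction), so a single call among 11 is not far from the background. VCAM1 was also the only probe set of the 11 in which the groups did not overlap, whereas all TGF-β arrays lay below all untreated arrays in 4.91% of all probe sets and above them in 6.11%. It was likewise the only 1 of the 11 with a difference of at least 2-fold, a size reached by 1.2% of all probe sets. The median log2 difference of the 11 was 0.017, and that of all probe sets 0.011. In 5 probe sets all 3 pairs had the same sign, 2 higher (NFKBIA and 1 probe set of CCL2) and 3 lower (VCAM1, ICAM1 and SOD2), against 40.7% of all probe sets. An unadjusted p under 0.05 was found for 3 of the 11, against 19.7% of all probe sets.

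**Figure D2:**
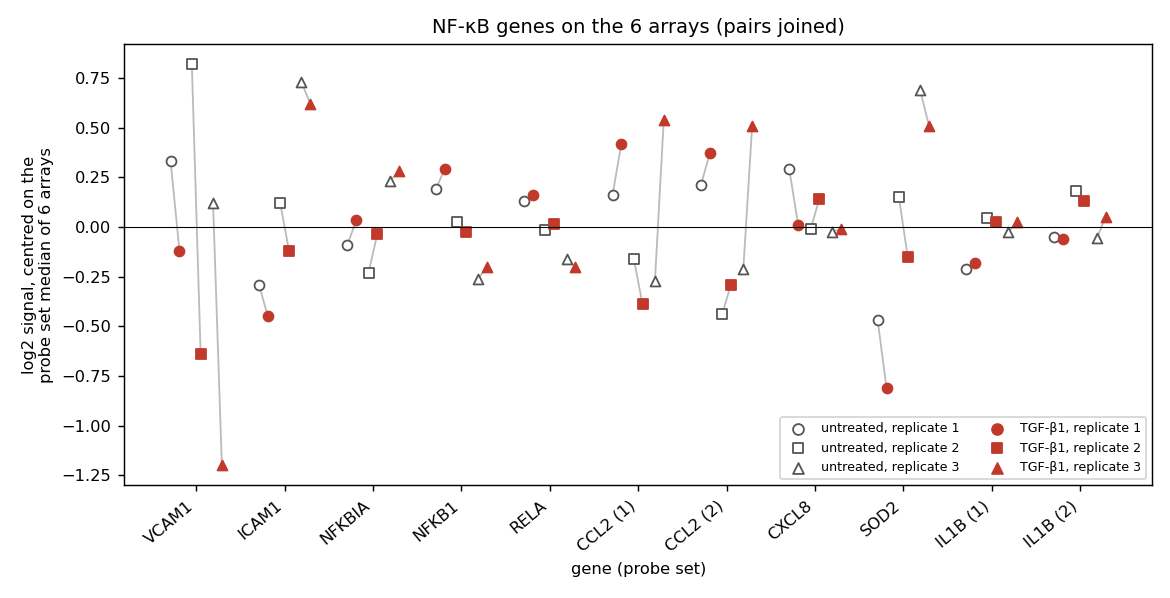
Log2 signal of the 11 probe sets (x axis), centred on the median of each over the 6 arrays (y axis), with open symbols for untreated cultures and filled symbols for TGF-β1, and lines joining arrays of the same replicate (the second CCL2 set is the one with suffix _s_at). VCAM1 falls in each pair, from 0.33, 0.82 and 0.12 to -0.12, -0.64 and -1.2, whereas ICAM1 and SOD2 are spread by replicate.

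ICAM1, the adhesion molecule that binds β2 integrins of leukocytes, did not pass the test. Its values were -0.29, 0.12 and 0.73 log2 units in untreated replicates 1 to 3 and -0.45, -0.12 and 0.62 log2 units with TGF-β. Each TGF-β array lay slightly below its untreated partner, but the groups overlapped almost completely. The log2 difference was -0.17 (SE 0.105, n = 3 pairs, limma adjusted p = 0.434), with a 95% interval of -0.41 to 0.068. The interval of VCAM1, -1.49 to -0.66, has no value in common with it. The difference between both genes was not itself tested.

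SOD2, which encodes the mitochondrial superoxide dismutase, was the other member lower in each pair. It had -0.47, 0.15 and 0.69 log2 units in untreated replicates 1 to 3, and -0.81, -0.15 and 0.51 log2 units with TGF-β. The differences of the pairs were alike, at -0.35, -0.3 and -0.17 log2 units, while the replicates were far apart. The mean difference was -0.27 (SE 0.106, 95% interval -0.52 to -0.033), and its adjusted p in limma's paired fit was 0.193.

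For the chemokine CCL2, which attracts monocytes, both probe sets leaned upward and neither passed. On the probe set with the suffix _s_at the untreated values were 0.21, -0.44 and -0.21 log2 units and the TGF-β values 0.37, -0.29 and 0.51 log2 units. The other probe set had 0.16, -0.16 and -0.27 untreated and 0.42, -0.39 and 0.54 with TGF-β. They disagreed in replicate 2, where the difference was 0.15 on the former and -0.23 on the latter. Replicate 3 had the largest increase on both, 0.72 and 0.81 log2 units. The mean differences were 0.34 (SE 0.137, adjusted p = 0.206) and 0.28 (SE 0.177, adjusted p = 0.448) in limma's paired fit. Without replicate 3 they were 0.16 and 0.017, and without replicate 2 the latter was 0.54, with none of these past the test. Both probe sets were designed on the same transcript record and are not independent measurements, and the suffix of the former marks probes that can match more than a single gene.

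CXCL8, which encodes interleukin 8 and attracts neutrophils, had 0.29, -0.012 and -0.023 log2 units in untreated replicates 1 to 3 and 0.012, 0.14 and -0.012 log2 units with TGF-β. It was lower in replicate 1 and higher in replicates 2 and 3. The mean difference of -0.038 (95% interval -0.31 to 0.23, limma adjusted p = 0.911) turned to 0.081 without replicate 1.

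IL1B, which encodes interleukin 1β, an activator of the pathway as well as a target, hardly moved on either probe set. The former (suffix S1_at) gave -0.21, 0.045 and -0.023 untreated and -0.18, 0.024 and 0.023 with TGF-β, all in log2 units. The latter (suffix S2_at) gave -0.052, 0.18 and -0.058 untreated and -0.059, 0.13 and 0.052 with TGF-β. Their log2 differences were 0.02 and 0.017, each with a 95% interval of -0.22 to 0.26. As the level is lost in the centring, these values do not tell a transcript that stayed at the same level from a transcript that was not detected.

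The genes of the NF-κB machinery itself were close to 0. RELA, which encodes the p65 subunit, had 0.13, -0.013 and -0.16 log2 units untreated and 0.16, 0.013 and -0.2 log2 units with TGF-β, a difference of 0.0034 (95% interval -0.23 to 0.24). NFKB1, which encodes the p50 subunit and its precursor, had 0.19, 0.027 and -0.26 untreated and 0.29, -0.027 and -0.2 with TGF-β, a difference of 0.036 (95% interval -0.2 to 0.28). In both genes the order of the replicates was the same with and without TGF-β. NFKBIA, which encodes the inhibitor IκBα and is itself switched on by NF-κB, had -0.091, -0.23 and 0.23 untreated and 0.033, -0.033 and 0.28 with TGF-β. It was higher in each pair, by 0.12, 0.19 and 0.045 log2 units, with a mean of 0.12 (95% interval -0.12 to 0.36) and a limma adjusted p of 0.613.

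Over the 10 probe sets other than VCAM1, the lowest bound of any 95% interval was -0.52 and the highest 0.68 log2 units. In all 10 the interval therefore lay within 1 log2 unit of 0, that is, within a 2-fold change. These intervals are those of the paired fit, are not adjusted for the number of probe sets, and use limma's pooled variance.

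**Figure D3:**
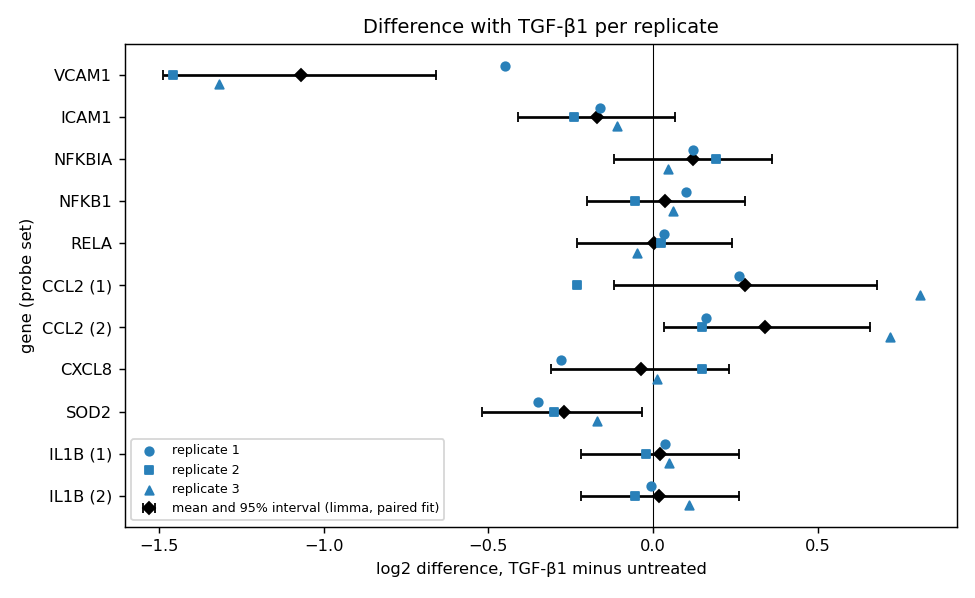
Log2 difference with TGF-β1 for each of the 11 probe sets (rows), with blue symbols for the 3 replicates, diamonds for the mean and bars for the 95% interval of limma's paired fit. All 3 differences of VCAM1 lie below those of every other probe set in the same replicate, and the other 10 intervals lie between -0.52 and 0.68.

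Most members differed more between replicates than with TGF-β, as did most probe sets of the array. In 10 of the 11 probe sets, all but VCAM1, the range of the 3 replicate means exceeded the size of the TGF-β difference. It did so in 82.6% of all probe sets, so this is not particular to the members. A range over 3 means and a mean difference are unlike measures, so the comparison is only a description. SOD2 had a range of 1.24 log2 units, wider than in 94.5% of probe sets, and ICAM1 a range of 1.04, wider than in 91.6%. Both were lowest in replicate 1 and highest in replicate 3. RELA and NFKB1 ran the other way, with replicate 1 highest and replicate 3 lowest, over ranges of 0.33 and 0.48 log2 units. VCAM1 followed neither order, with means of 0.1, 0.086 and -0.54 log2 units in replicates 1 to 3. The cell cycle list was high in replicate 3, where ICAM1 and SOD2 were also high, and the part of cell growth in these replicate differences was not tested.

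The probe sets most like VCAM1 over the 6 arrays, by Pearson's r among those with a single gene symbol, were those of GTF2IRD2 (r = 0.993), OXSM (r = 0.99) and MCCC1 (r = 0.988). MCCC1, which encodes a subunit of a mitochondrial carboxylase of leucine breakdown, had values of 0.24, 0.62 and 0.074 log2 units untreated and -0.074, -0.53 and -0.68 log2 units with TGF-β, and fell by 0.74 (limma adjusted p = 0.027). GTF2IRD2 and OXSM had log2 differences of -0.36 and -0.35 and did not pass. Arrays of the same number deviated together and are not independent points, and these are the highest values of r over all probe sets with a symbol, so they are given as a description.

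The wider pathway was then described with 6 lists of genes, which also hold the genes above other than SOD2. Each count below is to be read beside the shares over all probe sets, which were 2.44% higher, 3.46% lower and 19.7% at an unadjusted p under 0.05. Subunits and inhibitors of NF-κB counted 26 probe sets of 16 genes, of which 0 rose, 0 fell and 4 had an unadjusted p under 0.05. Their log2 differences ran from -0.39 to 0.32, with a median of -0.01. The smallest p-values were those of NFKBIZ, which encodes a nuclear IκB protein (0.32, SE 0.109, limma adjusted p = 0.144), and OTULIN, which encodes a deubiquitinase that restrains the pathway (0.30, SE 0.104, limma adjusted p = 0.153). Another probe set of NFKBIZ had 0.056. The 4 probe sets of NFKBIE, an IκB protein, lay between -0.27 and -0.17, and none passed.

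Kinases and adaptors that activate NF-κB counted 24 probe sets of 18 genes, and again 0 rose and 0 fell, with 2 at an unadjusted p under 0.05 and a median of 0.066. IRAK1, a kinase below interleukin 1 and Toll-like receptors, had 0.40 (limma adjusted p = 0.0682) on 1 probe set and 0.19 on the other, and TAB2, an adaptor of the TAK1 kinase, had 0.35 (adjusted p = 0.0974) and 0.09. The IκB kinase genes CHUK, IKBKB and IKBKG had log2 differences of 0.11, 0.066 and 0.14, and none passed.

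A few receptors at the head of the pathway passed the test. The list of interleukin 1, TNF and related ligands and receptors, which also held TLR2, TLR3 and TLR4, counted 27 probe sets of 17 genes. Of these probe sets, 2 rose, 1 fell and 24 did not pass, with a median of 0.043. TNFRSF1A, the TNF receptor found on most cells, had 0.51, 0.21 and 0.018 log2 units untreated and -0.018, -0.19 and -0.76 log2 units with TGF-β, and fell by 0.57 (SE 0.117, n = 3 pairs, limma adjusted p = 0.026). TNFRSF1B, the TNF receptor better known from immune cells, had -0.0043, -0.37 and -0.4 untreated and 0.68, 0.0043 and 0.14 with TGF-β, and rose by 0.53 (SE 0.112, n = 3 pairs, limma adjusted p = 0.0276). TLR4, the receptor of bacterial lipopolysaccharide, had -0.11, -0.56 and -0.74 untreated and 2.08, 0.44 and 0.11 with TGF-β, and rose by 1.35 (SE 0.229, n = 3 pairs, limma adjusted p = 0.0117). In none of the 3 genes did the groups overlap, as in the 4.91% of all probe sets with every TGF-β array below every untreated array and the 6.11% with every TGF-β array above. Both TNF receptor calls were lost when any replicate was left out (limma adjusted p between 0.0619 and 0.16), and TLR4 lost its call without replicate 2 (0.0619) and after quantile normalization (0.0551).

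**Figure D4:**
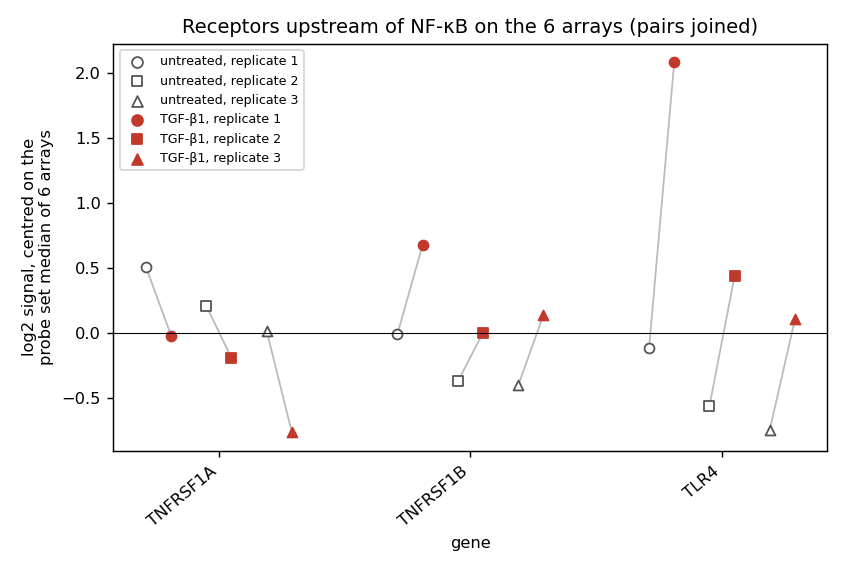
Log2 signal of the receptor genes TNFRSF1A, TNFRSF1B and TLR4 (x axis), centred on the median of each over the 6 arrays (y axis), with open symbols for untreated and filled for TGF-β1 cultures and lines joining each replicate. TNFRSF1A falls in each pair, whereas TNFRSF1B and TLR4 rise, TLR4 up to 2.08 in replicate 1.

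IL1RAP, the partner chain of the interleukin 1 receptor, had log2 differences of 0.87, 0.37 and 0.043 on 3 probe sets, with adjusted p-values of 0.088, 0.164 and 0.888 in limma's paired fit. IL1R1, the receptor itself, had 0.27, IL1RN, the secreted antagonist, 0.21, and TNF 0.19, and none of them passed. The pair of probe sets of IL1A had 0.085 and 0.073. Of the other Toll-like receptors in that list, TLR2 had -0.011 and the probe sets of TLR3 had 0.16, 0.095 and -0.025, and none passed.

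Chemokines counted 34 probe sets of 25 genes, of which 0 rose and 0 fell (4 at an unadjusted p under 0.05), with a median of -0.0052. The lowest p-values belonged to CCL20, which attracts cells with the receptor CCR6 (-0.42, SE 0.147, limma adjusted p = 0.149), and CXCL14, a chemokine of resting tissue (-0.50, SE 0.196, limma adjusted p = 0.196). CCL20 passed in the fit without replicate 3 (-0.60, limma adjusted p = 0.0437), and was -0.22 (limma adjusted p = 0.498) without replicate 2, which holds the array with bright spike-in controls. CXCL14 was -0.16 (limma adjusted p = 0.678) without replicate 3. The neutrophil chemokines CXCL2, CXCL3 and CXCL5 had -0.11, -0.055 and -0.11, and CCL5 had -0.012. The probe sets of GRO1, also in this list, went both ways, with -0.3, -0.11, 0.1 and 0.11, and none passed.

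Among 29 probe sets of 20 genes for leukocyte adhesion and the integrins that bind these molecules, VCAM1 was the only call, and the median was 0.034. The smallest p after VCAM1 was that of ITGB7, an integrin chain of lymphocytes (-0.39, SE 0.114, limma adjusted p = 0.0905). The selectin genes SELE and SELP had 0.15 and 0.22 log2 units, and the integrin genes ITGA4 and ITGB1, whose products together bind VCAM1, had 0.067 and 0.064. None of these passed.

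Most calls in the pathway came from other known NF-κB targets, and nearly all of these were higher. Of 50 probe sets of 31 genes, 10 rose, 1 fell and 39 did not pass, beside 2.44% higher and 3.46% lower over all probe sets, with a median of 0.044. At an unadjusted p under 0.05 there were 15 of the 50, beside 19.7% over all. Those that rose belonged to F3, the gene of tissue factor (3.36), TNFAIP6, whose product binds hyaluronan (2.92 and 2.04), the cytokine genes IL6 (2.03) and LIF (0.86), PTGS2, the inducible cyclooxygenase (1.87 and 1.53), HAS2, a hyaluronan synthase (1.48), and the stress response genes IER3 (0.87) and GADD45B (0.87). CCND1, which encodes the cell cycle protein cyclin D1, fell by 0.51. Probe sets of a gene did not always move together, and a further probe set of PTGS2 had -0.094 and a pair of HAS2 had 0.37 and 0.031. The survival gene BIRC3, an NF-κB target often used as a readout, had -0.47 (SE 0.142, limma adjusted p = 0.101) on 1 probe set and 0.091 on the other. F3, TNFAIP6, IL6 and PTGS2 are among the genes that the study listed from these same arrays. The present list of targets was also chosen with earlier results of these data known. The count is therefore not independent evidence of a direction of NF-κB targets. All 10 increases and the CCND1 decrease were lost without the replicate block (limma adjusted p between 0.25 and 0.999), where 0 of all probe sets passed. The list kept 10 increases when any replicate was left out and after quantile normalization, and 0 in the methods' t-test after adjustment. CCND1 lost its call when any replicate was left out (limma adjusted p 0.0598 to 0.17) and after quantile normalization (-0.42, limma adjusted p = 0.187).

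**Figure D5:**
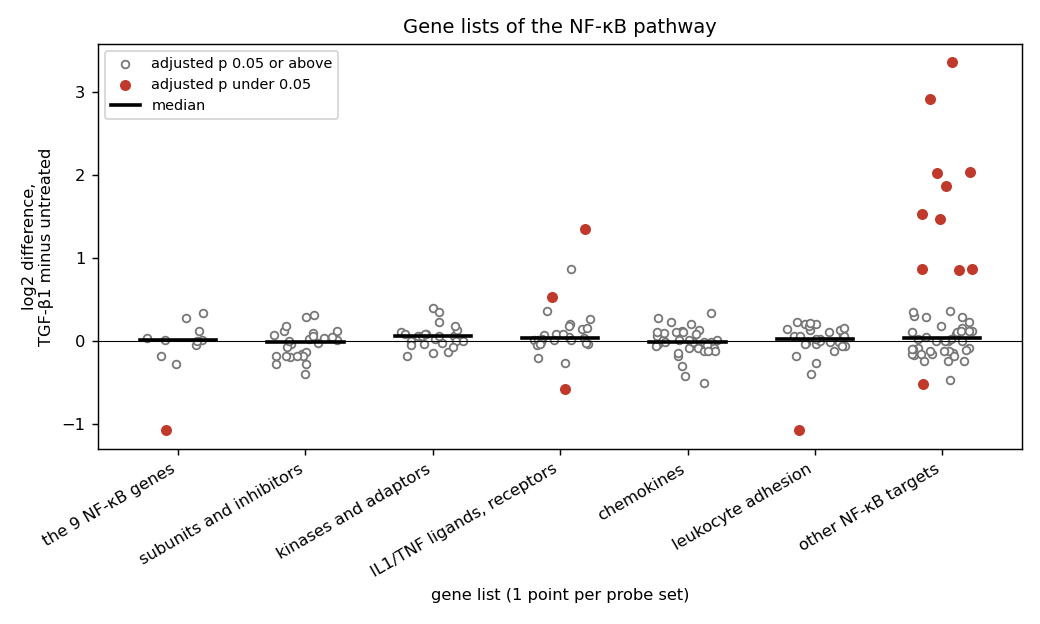
Log2 differences with TGF-β1 (y axis) for every probe set of the 9 genes and of 6 lists of NF-κB pathway genes (x axis), with 1 point per probe set, filled where the adjusted p of limma's paired fit was under 0.05, and bars at the medians. Medians lie between -0.01 and 0.066, and the calls belong to VCAM1, to 3 receptor genes and to the list of other targets.

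VCAM1 and the chemokines are also made by leukocytes, endothelium and fibroblasts, so markers of these cells were set beside the result. Of 17 leukocyte and macrophage, 13 endothelial and 14 fibroblast marker probe sets, 0 were called in any list, beside 5.9% of all probe sets. Medians were 0.083, 0.0074 and -0.092 log2 units, with 1, 0 and 5 at an unadjusted p under 0.05, beside 19.7% of all probe sets. The fibroblast list went both ways, from -0.54 log2 units for CD55 to 0.85 for PDPN, and the pair of probe sets of COL3A1 had -0.49 and -0.53, none of them past the test. On single arrays the median of the endothelial list lay between -0.015 and 0.0089 untreated and between -0.048 and 0.067 with TGF-β. That of the fibroblast list lay between -0.1 and 0.25 and between -0.097 and 0.18. Chondrocyte markers were not constant: of 24 probe sets of 10 genes, 2 of COMP rose (1.05 and 0.79) and 1 of CNMD (-0.59) and 4 of COL11A1 (-1.0 to -0.68) fell. The median of the 24 was -0.19 log2 units, and 11 of them had an unadjusted p under 0.05, beside 19.7% of all probe sets. The part of the makeup of the cultures in the VCAM1 difference was not tested.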

How the data were processed

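RNA of 6 micromass cultures was hybridised to Affymetrix Bovine Genome arrays, 1 per culture, after a 2-cycle amplification. Per the labels and methods, the signals were summarised by the authors with RMA (named in the submitters' processing notes) and analysed in GeneSpring, and the deposited table holds log2 values centred on each probe set's median over the 6 arrays (largest absolute median 5e-07). No level remains, which leaves no way to remove dim probe sets; scanner files were not used here. Precision is limited by 3 arrays per group. The sources do not state the cow behind each replicate number.

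Of 24128 rows, 112 were Affymetrix controls, which left 24016 to test. Symbols came from the platform annotation: 13292 probe sets had 1 symbol, 86 several and 10638 none. For 13263 probe sets the symbol was looked up again through its Entrez ID, which changed 0 symbols. No sequence is shown.

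Differences (TGF-β minus untreated) were tested 2-sided with limma 3.58.1 in R 4.3.3 (lmFit, eBayes), with the replicate number as a block and Benjamini-Hochberg adjustment over all probe sets at 0.05; rose and fell mean past this threshold. Pairing by number was set together with the choice of the genes, and the study grew cultures of 3 cows with and without TGF-β. As a check, deviations from the group means correlated at 0.74, 0.694 and 0.845 for equal numbers and at -0.683 to 0.185 for unequal ones. The fits were tested on simulated data. Alternatives were the groups alone, median scaling, quantile normalization, annotated probe sets only, a robust prior, leaving out each replicate, the mean over a gene's probe sets, and the methods' t-test (unequal variances). Named were every member, every called gene of a list, the 2 genes of lowest p in lists without a call, and the 3 probe sets most like a called member; further genes of the lists were named after their values were seen. Members and lists were chosen with earlier results of these data known.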

Additional observations from a re-analysis of the deposited data

How the results depend on the processing

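Each setting below changes a single choice of the paired fit, other than the methods' t-test, which drops the block and limma's pooled variance and lets the variances differ. Without the replicate block, limma called 0 probe sets in either direction in place of 585 higher and 832 lower, 0 of the 190 pathway list probe sets in place of 12 higher and 3 lower, and 0 members. VCAM1 kept its log2 difference of -1.07 there with an adjusted p of 0.646. The methods' t-test also called 0 in each of these counts after adjustment, with an adjusted p of 1.0 for VCAM1, and at an unadjusted p under 0.05 and at least 2-fold it called 65 probe sets higher and 62 lower, without any of the members. Quantile normalization gave 377 higher and 443 lower. The fit of only the 13292 probe sets with a single symbol, out of 24016, gave 277 and 505. Leaving out a replicate gave 272 to 590 probe sets higher and 267 to 747 lower, 0 to 1 members lower, 10 to 12 pathway probe sets higher and 0 to 2 lower. VCAM1 ran from -1.39 to -0.88 and lost its call without replicate 2 (-0.88). The other 10 member probe sets were called in 0 of their 100 alternatives. In 7 of these the sign turned, each time near 0: RELA with median scaling (-0.0063), quantile normalization (-0.011) and without a replicate (-0.011 to 0.029), CXCL8 without replicate 1 (0.081; range -0.13 to 0.081), and the S2_at probe set of IL1B with quantile normalization (-0.014) and without replicate 3 (-0.03; range -0.03 to 0.052). Apart from the calls named, the causes were not tested.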
